A study of Mus musculus with 36 samples.

Results

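Translation initiation factors (eIFs) are the proteins that bring the ribosome, the initiator methionyl-tRNA and an mRNA together at the start codon. The genes described here are those of the deposited table whose names start with Eif and a digit from 1 to 6, without the eIF2alpha kinases (names starting with Eif2ak), and they are 51 of the 24781 genes in the table. In outline, eIF2 carries the initiator tRNA to the small ribosomal subunit, eIF3 holds that subunit in an open, mRNA-ready state, and the eIF4 proteins bind the mRNA cap and unwind its leader, after which eIF1, eIF1A and eIF5 police the choice of the start codon and eIF5B joins the large subunit. In activated macrophages and T cells, initiation is a known point of control of protein output, through phosphorylation of eIF2alpha and through the eIF4E-binding proteins downstream of mTOR. These controls act on proteins, whereas the values here are mRNA molecules.

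The study asked how B cells and the GABA they make shape immunity to tumours, using mice that carried the MC38 colon adenocarcinoma line. From each tumour, 100 macrophages (CD45+CD11b+F4/80high, called TAMs here) or 100 CD8 T cells (CD45+TCRbeta+CD8+) were sorted on day 7 after inoculation. There were 3 groups of mice, with 6 libraries of each cell type in each, 36 in all. RNA was read as molecules, each counted once through a molecular barcode in the oligo(dT) primer. WT mice have B cells. The muMt-/- mice carry a disrupted Ighm gene, on the C57BL/6J background, and lack mature B cells. The remaining group was muMt-/- with an implanted GABA pellet, and it is called GABA-pellet muMt-/- here. The labels give no treatment for the first 2 groups, while the study's methods describe placebo pellets for its controls. All 3 groups carried the tumour.

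Library depth differed between the cell types and between groups. In WT TAMs the libraries held 206394, 242756 and 304100 molecules (lowest, median, highest), in muMt-/- TAMs 100254, 149960 and 253608, and in GABA-pellet muMt-/- TAMs 151856, 192775 and 262606. The CD8 libraries were shallower, with 22896, 42065.5 and 76898 molecules in WT, 51064, 67121.5 and 77839 in muMt-/- and 65356, 80283 and 98015 in GABA-pellet muMt-/-. The deepest CD8 library therefore lay below the shallowest TAM library, so depth and cell type cannot be told apart. All 12 macrophage markers were detected in TAMs, with C1qb at 3328 molecules the most abundant in WT, and all 10 CD8 T cell markers in CD8 cells, with Thy1 the most abundant in each group. The macrophage markers summed to 0.9752, 1.12 and 1.25% of molecules in WT TAMs, 0.856, 0.943 and 1.09% in muMt-/- TAMs and 0.698, 0.997 and 1.09% with the pellet. Some CD8 libraries held macrophage transcripts too, most of all muMt-/- replicate 1, where the same markers took 0.433%, and pellet replicates 1 and 3 (0.265 and 0.202%). The CD8 T cell markers summed to 0.332, 0.468 and 0.666% in WT CD8 libraries, 0.176, 0.406 and 0.568% in muMt-/- and 0.220, 0.398 and 0.639% with the pellet, lowest in muMt-/- replicate 1. Few molecules of B cell genes were found, the most abundant being Blnk with 68, 21 and 34 in WT, muMt-/- and GABA-pellet muMt-/- TAMs, followed by Cd79b with 6, 4 and 9 and Cd22 with 3, 4 and 6. Ms4a1 had 1 molecule, in GABA-pellet muMt-/- TAMs, and Cd79a and Pax5 had 0 in every group. In CD8 cells Blnk had 0, 7 and 2, Cd79b 0, 0 and 5 and Cd22 1, 1 and 1.

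Of the 51 genes, 29 had a molecule in all 36 libraries, 43 in all 18 TAM libraries and 30 in all 18 CD8 libraries. Eif4e1b, an oocyte form of the cap-binding protein, had no molecule in any library. With a mean normalized number above 1, the filter for testing, 50 of the 51 genes were tested in TAMs among 9469 genes, 49 in CD8 cells among 6663 genes and 49 over the 36 libraries among 8477 genes. Eif3j1 and Eif3j2 carried the same count in 29 of 36 libraries and never differed by more than 2 molecules (341 and 333 molecules in total). Whether the counts of this gene pair come from separate transcripts was not tested.

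Together the initiation factor genes made up close to 1 in 100 of the molecules. In WT TAMs their share of all molecules was 0.771, 0.829 and 0.972% (lowest, median, highest; n = 6). In muMt-/- TAMs it was 0.670, 0.711 and 0.811%, and in GABA-pellet muMt-/- TAMs 0.792, 0.863 and 0.870%. The muMt-/- libraries were thus the low ones, with ranges that overlapped those of the other groups only at the edges. Counted without the ribosomal precursor transcript Rn45s, the share was 0.848, 0.914 and 1.07% in WT TAMs, 0.790, 0.825 and 0.927% in muMt-/- TAMs and 0.851, 0.949 and 1.09% with the pellet, and 2 muMt-/- libraries then lay inside the range of WT. CD8 cells had higher median shares than TAMs, 0.902, 0.989 and 1.12% in WT, 0.916, 0.974 and 1.10% in muMt-/-, and 1.02, 1.09 and 1.14% in GABA-pellet muMt-/-.

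Levels are given per kilobase of transcript. Because each molecule was counted once from its poly(A) end, the counts need not grow with transcript length, and the order of the genes depended on the scale beyond the leading pair. In TAMs, Eif5a had the highest mean level, 62.6 normalized molecules per kilobase over 18 libraries (89.9 normalized molecules), followed by Eif1 at 59.7 per kilobase (78.9 molecules). Eif5a encodes the hypusine-bearing factor that helps ribosomes through stalling sequences, and Eif1 a small scanning factor that keeps the ribosome from starting at wrong codons. In CD8 cells Eif1 came before Eif5a, at 88.4 and 68.0 per kilobase (117 and 97.7 molecules). Below these, ranks moved with the scale. The eIF2beta gene Eif2s2 ranked 3 by molecules and 7 per kilobase in CD8 cells, the eIF3 subunit gene Eif3h 8 and 3, and the eIF3 scaffold gene Eif3a 5 and 10 in TAMs. The helicase gene Eif4a1 ranked 3 on both scales in TAMs, at 31.0 per kilobase. At the other end, on both scales, stood Eif5a2, the second eIF5A gene, at 0.119 per kilobase in TAMs and 0.191 in CD8 cells, and the eIF2B subunit gene Eif2b3 at 0.209 and 0.507. None of the 5 eIF2B genes was above 1.98 per kilobase in TAMs, where the eIF2alpha gene Eif2s1 had 4.54.

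The comparison of muMt-/- with WT asks what the lack of B cells does to the cells in the tumour. In TAMs, most initiation factor genes had lower estimates without B cells, and 2 passed the test. Both fell, Eif6 and Eif3g. Counted over all genes, 2.05% passed in either direction (97 higher and 97 lower of 9469; edgeR quasi-likelihood test, Benjamini-Hochberg adjusted p under 0.05). The estimate was below 0 for 39 of the 50 tested genes, beside 53.7% of all genes, with a median log2 fold change of -0.27, where the median over all genes was -0.05. Without adjustment, at p under 0.05, 7 initiation factor genes were lower and 0 higher, where 8.15% of all genes were lower and 6.72% higher. DESeq2 also called 2 lower at its adjusted p, and 7 lower and 0 higher at its unadjusted p, its shares over all genes not being given. Among well-covered genes, those with a mean of at least 20, the estimate was below 0 for 18 of 24 initiation factor genes (median -0.23), against 49.2% of 1590 genes (median 0.00). The family median and the all-gene median were -0.18 and -0.02 with log2 total molecules as a covariate, -0.20 and -0.01 with the Rn45s share, and -0.09 and 0.03 with the Malat1 and Neat1 share, where 31 of 50 estimates were below 0. In bulk samples of sorted cells, fewer cells of a type and less RNA per cell cannot be told apart.

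Eif6 encodes the factor that holds the large ribosomal subunit apart from the small subunit until initiation is complete (gene ID 16418, mm10 chromosome 2, 155819837 to 155826925). Its normalized number of molecules was 17.5, 25.4 and 28.4 in WT TAMs (lowest, median, highest; n = 6) and 5.58, 13.0 and 18.7 in muMt-/- TAMs. Of the 6 muMt-/- libraries 4 lay below every WT library, and the other muMt-/- libraries overlapped the low end of WT. The log2 fold change was -0.93 (SE 0.24, 95% confidence interval -1.41 to -0.45), with an edgeR adjusted p of 0.0273. Eif3g encodes an RNA-binding subunit of eIF3 (gene ID 53356, mm10 chromosome 9, 20894349 to 20898590). Its normalized numbers were 6.46, 18.5 and 19.6 in WT TAMs and 2.79, 7.28 and 13.99 in muMt-/- TAMs (n = 6 each). WT replicate 2 was the low WT library at 6.46, the other WT libraries held 16.7 to 19.6, and 3 of 6 muMt-/- libraries lay below all of WT. The log2 fold change of Eif3g was -1.12 (SE 0.29, 95% confidence interval -1.70 to -0.53) with an edgeR adjusted p of 0.0291, lower in 3 of 6 libraries than in any WT library.

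Neither call held when certain libraries were left out. Without WT TAM replicate 1, 3 or 6, or muMt-/- TAM replicate 4 or 6, the adjusted p of Eif6 lay between 0.0536 and 0.0969 with log2 fold changes of -0.91 to -0.79. Without WT TAM replicate 1, 3, 5 or 6, or muMt-/- TAM replicate 2, 4 or 5, that of Eif3g lay between 0.0530 and 0.0990 with log2 fold changes of -1.10 to -0.97. Depth, RNA composition and the shares of macrophage and dividing-cell transcripts moved with the groups. Beside the shallower muMt-/- libraries given above, Rn45s took 12.5, 13.3 and 18.8% of molecules in muMt-/- TAMs, and 7.07, 9.35 and 11.4% in WT TAMs, with no overlap. The nuclear RNAs Malat1 and Neat1, both of 2 detected and Malat1 the more abundant, took 0.458, 0.573 and 1.04% in muMt-/- TAMs and 0.313, 0.362 and 0.384% in WT TAMs, again with no overlap. In GABA-pellet muMt-/- TAMs the corresponding shares were 6.96, 8.68 and 19.9% for Rn45s and 0.344, 0.381 and 0.518% for Malat1 and Neat1. With log2 total molecules as a covariate the log2 fold changes were -0.75 for Eif6 and -1.02 for Eif3g, with the Rn45s share, a setting chosen after the data were seen, -0.68 and -0.85, and with the Malat1 and Neat1 share -0.28 and -0.33. Under these settings neither gene passed, at adjusted p of 0.383 and 0.326, 0.280 and 0.282, and 0.950 and 0.955. Transcripts of dividing cells moved as well, all 8 of 8 markers being detected and Top2a the most abundant. They took 0.0464, 0.0515 and 0.101% of molecules in muMt-/- TAMs and 0.0656, 0.0953 and 0.122% in WT TAMs, with 4 of 6 muMt-/- libraries below all of WT, and 0.0449, 0.0595 and 0.110% with the pellet. The part of depth and RNA composition in the result was not tested further, and that of dividing cells was not tested. The macrophage share given above was below all of WT in 4 of 6 muMt-/- TAM libraries, and its part in the result was not tested. Markers of tumour epithelium and stroma took 0.0148, 0.0434 and 0.535% in WT TAMs and 0.0145, 0.0518 and 0.208% in muMt-/- TAMs. With the pellet they took 0.0540, 0.0659 and 0.274%. The highest WT share was that of replicate 6, a library without which neither gene passed. The part of these markers was not tested.

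**Figure D1:**
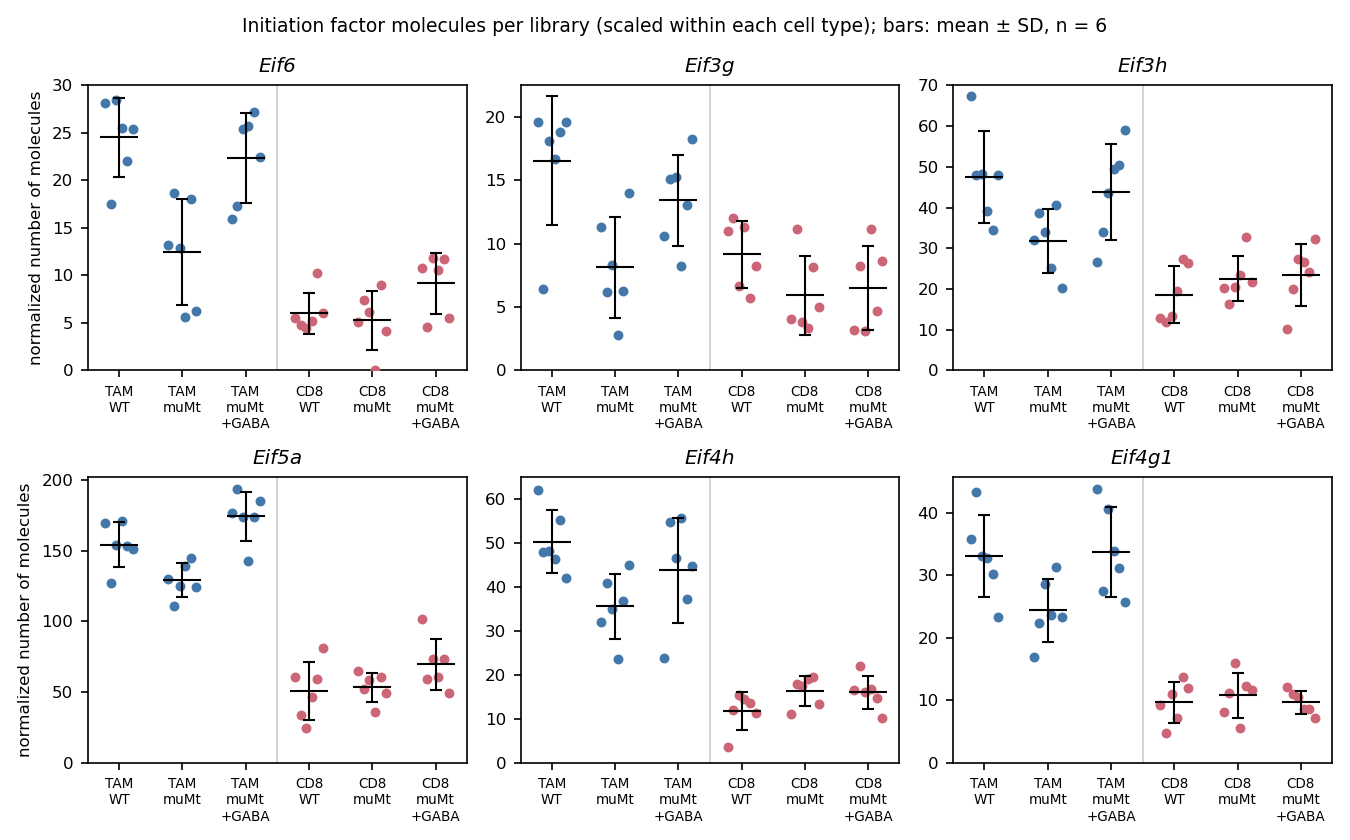
Normalized number of molecules (y axis) of 6 initiation factor genes in each library, by cell type and group (x axis), scaled over the 18 libraries of the cell type, so that TAM and CD8 values are not on a common scale. Points are libraries and bars give the mean and SD (n = 6); Eif6 in muMt-/- TAMs sits at 5.58 to 18.7, against 17.5 to 28.4 in WT.

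By role, the estimates without B cells lay lowest among eIF2 and eIF2B and among the factors outside the main complexes. Start codon selection (Eif1, Eif1a, Eif1ax, Eif1b, Eif5, Eif5b) had 3 of 6 genes below 0 and a median log2 fold change of -0.05. The eIF2 and eIF2B genes had 7 of 9 below 0 and a median of -0.39, with the low-count eIF2B genes spread widest. Of the eIF3 genes 11 of 14 were below 0, with a median of -0.25 and 1 past the test (Eif3g). The eIF4 cap-binding and helicase genes had 9 of 11 below 0 and a median of -0.05, and the eIF4E-binding proteins 3 of 4 and -0.19. All 6 of the others (Eif2a, Eif2d, Eif5a, Eif5a2, Eif6, Eif1ad) were below 0, with a median of -0.42. Lower at an unadjusted p under 0.05 were 2 eIF3 genes, 3 eIF4 cap-binding and helicase genes and 2 of the others. The remaining roles, eIF2 and eIF2B among them, had 0, where 8.15% of all genes were lower.

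Several abundant factors lay lower without passing the adjusted test. Eif3h encodes an MPN-domain subunit at the core of eIF3. Its normalized numbers were 34.5, 48.0 and 67.4 in WT TAMs and 20.2, 33.1 and 40.7 in muMt-/- TAMs (n = 6 each). For Eif3h, 4 of 6 muMt-/- libraries lay below all of WT, and the log2 fold change was -0.56 (SE 0.20, edgeR adjusted p 0.143). With the Malat1 and Neat1 share as a covariate its direction turned, to a log2 fold change of 0.09. Eif4h, whose protein stimulates the eIF4A helicase, had 42.1, 48.1 and 62.2 in WT TAMs and 23.7, 35.9 and 45.1 in muMt-/- TAMs, with 5 of 6 muMt-/- libraries below all of WT (log2 fold change -0.52, SE 0.19, edgeR adjusted p 0.152). The helicase gene Eif4a1 had a log2 fold change of -0.32 (SE 0.15), the scaffold gene Eif4g1, which links cap-binding protein, helicase and eIF3, -0.41 (SE 0.19), and Eif5a -0.28 (SE 0.14). On the other side of 0 stood Eif4ebp2, a repressor that sequesters eIF4E, at 0.58 (SE 0.32), and the cap-binding protein gene Eif4e at 0.26 (SE 0.22).

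The genes set beforehand to be named whatever their result did not pass the edgeR test in any TAM comparison, and Eif5a and Eif4ebp1 are taken up again with the pellet. Eif2s1, the eIF2alpha subunit that the stress kinases phosphorylate, had 16.7, 25.5 and 34.7 normalized molecules in WT TAMs, 15.7, 27.7 and 33.5 in muMt-/- TAMs and 19.2, 22.8 and 50.4 in GABA-pellet muMt-/- TAMs. The groups overlapped almost fully, and its log2 fold change in muMt-/- against WT was 0.04 (95% confidence interval -0.42 to 0.50). For Eif4e the TAM values were 16.6, 22.1 and 30.7 in WT, 18.7, 24.3 and 38.4 in muMt-/- and 19.2, 26.9 and 39.8 with the pellet. Eif4ebp1, the mTOR-controlled repressor of eIF4E, had 17.4, 22.5 and 35.2, then 17.4, 22.3 and 28.0, then 18.1, 30.8 and 38.5. The eIF2gamma subunit has an X-linked and a Y-linked gene in the mouse. Eif2s3x had medians of 12.9, 10.99 and 14.8 in the WT, muMt-/- and GABA-pellet muMt-/- TAMs, and Eif2s3y 8.32, 8.89 and 8.05. Eif2s3y lacked a molecule in 1 of 36 libraries, WT CD8 replicate 2.

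Outside the family, the hydroxylase that finishes the hypusine of eIF5A fell in the same comparison. Dohh had 7.27, 11.98 and 17.4 normalized molecules in WT TAMs and 1.88, 4.79 and 6.27 in muMt-/- TAMs (n = 6 each), so that all 6 muMt-/- libraries lay below all of WT. Its log2 fold change was -1.38 (SE 0.31) with an edgeR adjusted p of 0.0106, and it passed without any of the 12 libraries in turn (adjusted p 0.00764 to 0.0425). With the depth, Rn45s or Malat1 and Neat1 covariates the log2 fold changes of Dohh were -1.21, -1.2 and -0.72, at adjusted p of 0.226, 0.139 and 0.890. Dhps, the enzyme of the preceding step, had a log2 fold change of 0.08 (SE 0.45). Dohh was the only call among the reference lists: 1 of 15 tested elongation and release factor genes fell, and 0 of 11 eIF2alpha kinase and phosphatase genes, 0 of 13 cap-binding control genes and 0 of 13 poly(A)-binding and other initiation protein genes passed. Their median log2 fold changes were -0.19, 0.16, 0.08 and 0.12, against -0.05 over all genes. The 3 lists without a call had, at an unadjusted p under 0.05, 1 higher, 1 higher, and 1 higher and 1 lower. The elongation and release list had 2 lower, Dohh among them. Over all genes 6.72% were higher and 8.15% lower at that p.

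The comparison of GABA-pellet muMt-/- with muMt-/- asks what GABA does where B cells are missing. It shares the muMt-/- libraries with the comparison above, so that a low library there moves both estimates in opposite directions. In TAMs, most initiation factor estimates lay above 0, and none passed the edgeR test. The count of 0 stands beside 0.0211% of all genes by edgeR (2 of 9469). DESeq2 at its adjusted p called 1, Eif5a (higher, log2 fold change 0.43, adjusted p 0.0106, with 5 of 6 pellet libraries above all muMt-/- libraries). The share of all genes that DESeq2 called is not given here, so this call has no background beside it. At an unadjusted p under 0.05, edgeR had 8 higher and 0 lower, where 5.15% of all genes were higher and 3.31% lower, and DESeq2 6 higher. The estimate was above 0 for 39 of 50 genes, beside 55.8% of all genes, with a median log2 fold change of 0.17 where the median over all genes was 0.06. The all-gene calls were 1 higher and 1 lower with TMM scaling, 1 and 2 with DESeq2 size factors, and 5 and 2 with total molecules. Pellet TAM replicate 1 differed from the other pellet libraries over all genes, as described further below. With each library left out in turn the family median ran from 0.14 to 0.21, and 0 initiation factor genes passed.

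Eif5a had 127, 154 and 171 normalized molecules in WT TAMs, 111, 128 and 145 in muMt-/- TAMs and 143, 175 and 194 in GABA-pellet muMt-/- TAMs (n = 6 each). Of the 6 pellet libraries, 5 lay above all muMt-/- libraries and above all WT libraries. The log2 fold change of pellet against no pellet was 0.46 (SE 0.14, edgeR adjusted p 0.244). Eif6 had 15.9, 23.9 and 27.2 with the pellet, a range close to that of WT, and 4 of 6 pellet libraries lay above all muMt-/- libraries (log2 fold change 0.80, SE 0.24, edgeR adjusted p 0.278). Eif3g had 8.24, 14.1 and 18.3 with the pellet, with 3 of 6 libraries above all muMt-/- libraries (0.82, SE 0.30, edgeR adjusted p 0.377). With the Malat1 and Neat1 share as a covariate these log2 fold changes were 0.26 for Eif6 and 0.17 for Eif3g, with the Rn45s share 0.57 and 0.58, and with log2 total molecules 0.72 and 0.77, while Eif5a had 0.48, 0.47 and 0.40. Other genes higher at an unadjusted p under 0.05 were the eIF3 subunit genes Eif3f (log2 fold change 0.41, SE 0.16) and Eif3h (0.47, SE 0.21), Eif4g1 (0.42, SE 0.20), Eif4ebp1 (0.46, SE 0.22) and Eif1 (0.30, SE 0.15). On the other side, Eif5, which makes eIF2 hydrolyse its GTP at the start codon, had a log2 fold change of -0.33 (SE 0.17). Dohh had 6.10, 8.15 and 11.5 with the pellet (log2 fold change 0.89, SE 0.34, edgeR adjusted p 0.408), between the other groups in its median. No gene of the 4 reference lists passed, and their medians were 0.12 for eIF2alpha kinases and phosphatase, 0.14 for cap-binding control, -0.07 for poly(A)-binding and other initiation proteins and 0.16 for elongation and release factors. Counting unadjusted p under 0.05, they had 0, 0, 3 (2 higher and 1 lower) and 2 genes (both higher). Over all genes 5.15% were higher and 3.31% lower at that p.

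Against WT, the GABA-pellet muMt-/- TAMs showed little displacement of the family. No initiation factor gene passed the edgeR test, where 0.0739% of all genes did (7 of 9469), and DESeq2 called 0 at its adjusted and 0 at its unadjusted p. Before adjustment, at p under 0.05, edgeR had 0 higher and 1 lower, where 3.74% of all genes were higher and 3.28% lower. The estimates were above 0 for 26 of 50 genes, beside 52.0% of all genes, and the median log2 fold change was 0.01 beside 0.02 over all genes (with total molecules as the scale, the median turned to -0.01). The lower gene was Eif2b2, the beta subunit of eIF2B, the factor that reloads eIF2 with GTP. It had 4.74, 7.42 and 10.2 normalized molecules in WT TAMs, 1.55, 5.23 and 5.58 in muMt-/- TAMs and 1.33, 3.46 and 9.16 with the pellet. Its log2 fold change of pellet against WT was -0.71 (SE 0.35, edgeR adjusted p 0.711), with 4 of 6 pellet libraries below all of WT. The next smallest p were those of Eif4ebp2 and Eif4g3. Eif4ebp2 had 5.81, 7.47 and 12.6 in WT TAMs and 3.66, 10.5 and 30.5 with the pellet, the widest range of the 3 groups (0.60, SE 0.31), and without pellet replicate 1 its log2 fold change was 0.27. Eif4g3, a second eIF4G scaffold gene, had 16.7, 20.1 and 24.7 in WT TAMs and 11.1, 16.9 and 18.3 with the pellet (-0.36, SE 0.19).

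**Figure D2:**
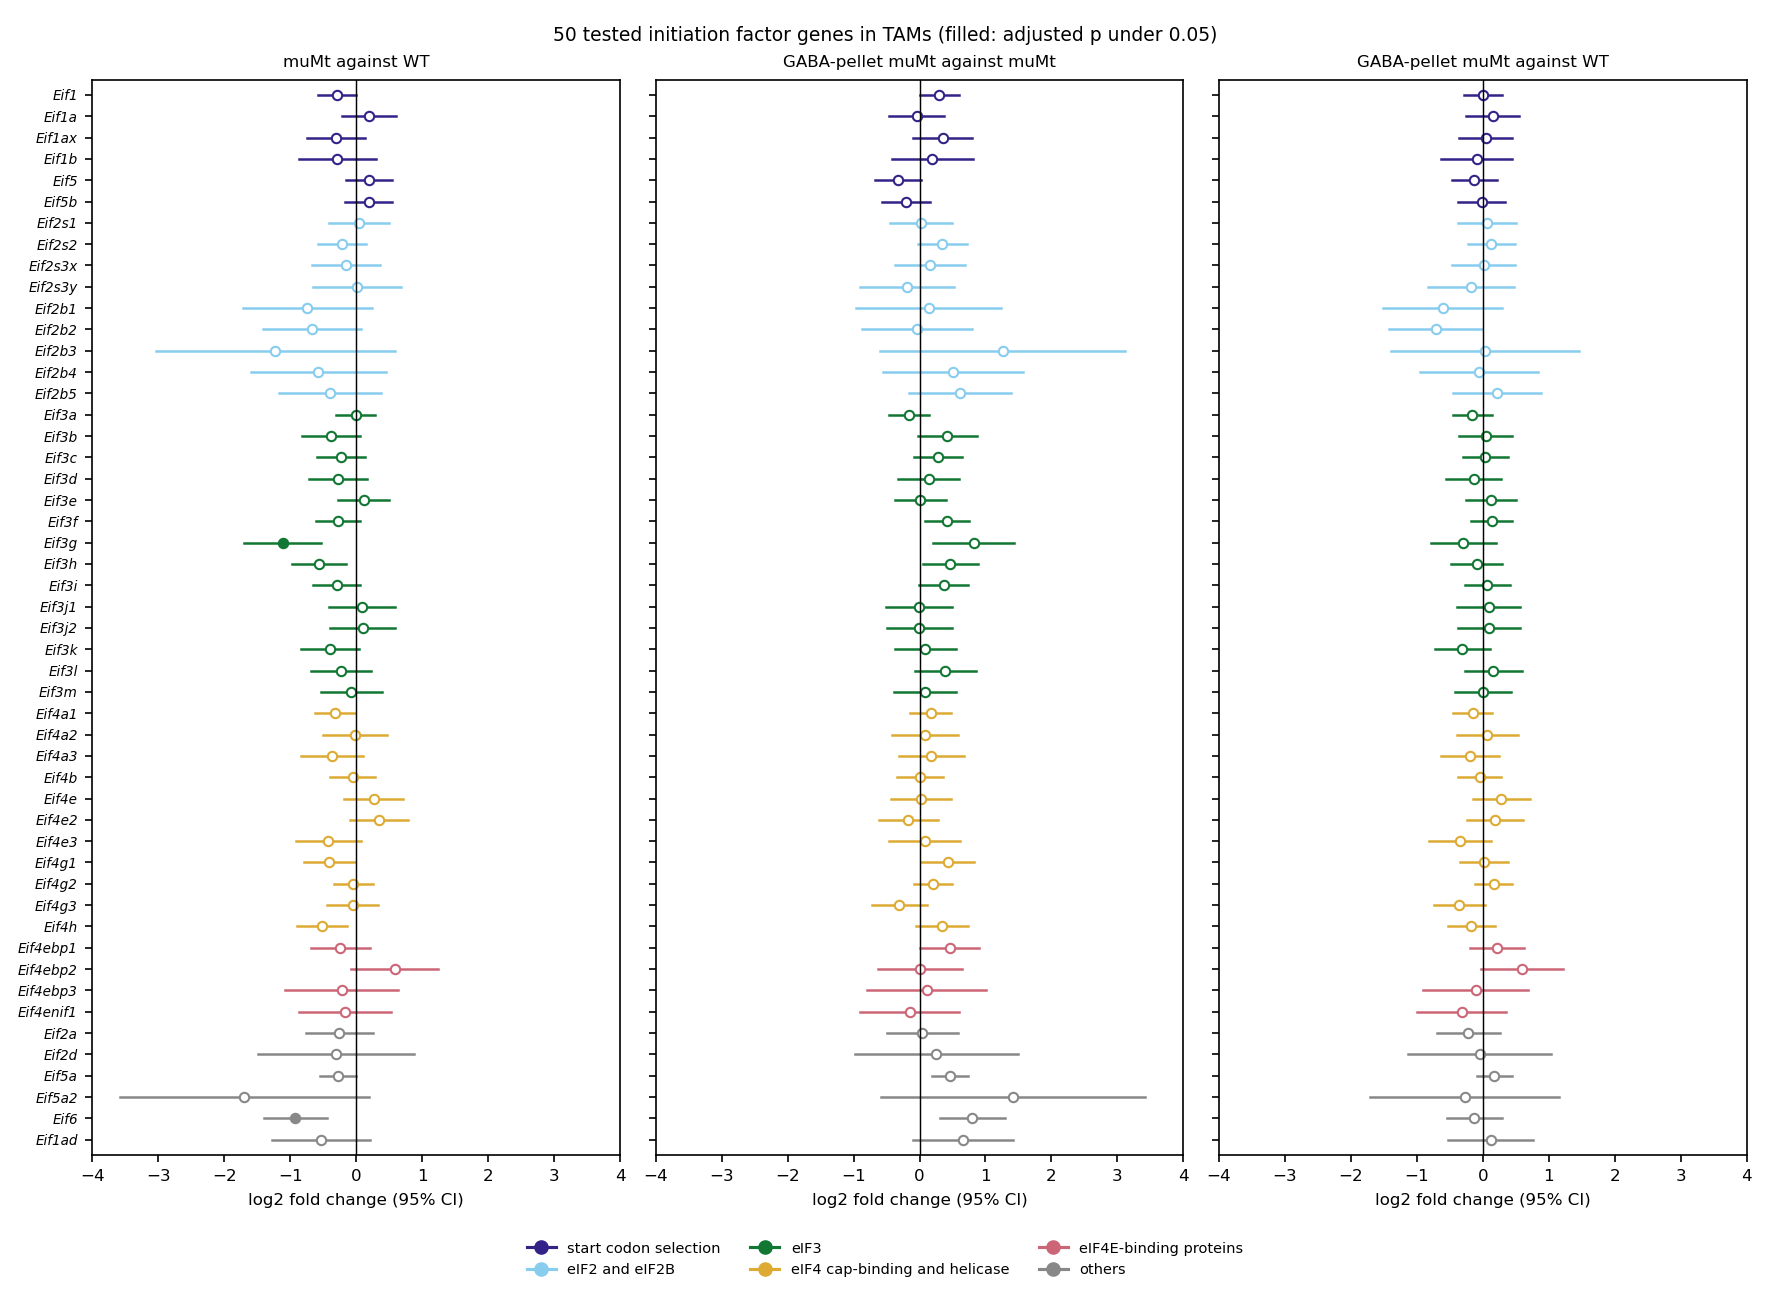
Log2 fold change with its 95% confidence interval (x axis) of the 50 tested initiation factor genes (y axis), in TAMs, for the 3 comparisons. Colours give the role, filled points an edgeR adjusted p under 0.05; Eif3g and Eif6 are filled in muMt-/- against WT, and the low-count Eif2b3 and Eif5a2 have the widest intervals.

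In CD8 T cells the same comparisons gave no call, over all genes and in the family. For muMt-/- against WT, 0 of 49 initiation factor genes passed the edgeR test (0% of 6663 genes), and DESeq2 called 0 at its adjusted and 0 at its unadjusted p. Without adjustment, at p under 0.05, edgeR had 1 higher and 0 lower, where 5.37% of all genes were higher and 0.795% lower. The estimate was above 0 for 31 of 49 genes (63.3%, beside 62.3% of all genes), and the median log2 fold change was 0.15 for the family and 0.15 for all genes. With DESeq2 size factors these medians were 0.03 and 0.06 and with total molecules 0.03 and 0.04, each with 27 estimates above 0, and with log2 total molecules as a covariate the family median turned to -0.07 beside 0.06. The family median ran from 0.08 to 0.23 with each library left out in turn. The higher gene was Eif4h. Its normalized numbers were 3.67, 12.9 and 15.5 in WT CD8 cells and 11.1, 17.7 and 19.6 in muMt-/- CD8 cells (n = 6 each). WT replicate 1 was the low library at 3.67, and 4 of 6 muMt-/- libraries lay above all of WT (log2 fold change 0.57, SE 0.28, edgeR adjusted p 0.804). This log2 fold change ran from 0.37 to 0.67 with each library left out in turn. Eif1ad, an eIF1A-domain protein gene, had 2.06, 4.24 and 6.63 in WT and 0.818, 1.84 and 2.97 in muMt-/-, with 4 of 6 muMt-/- libraries below all of WT (-0.94, SE 0.51, edgeR adjusted p 0.850). Eif3c, a core eIF3 subunit gene, had 9.01, 12.1 and 26.4 in WT and 12.5, 17.0 and 20.2 in muMt-/- (0.45, SE 0.26).

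Macrophage transcripts moved with these groups in the CD8 libraries. The 12 macrophage markers summed to 0, 0.0165 and 0.0889% of molecules in WT CD8 libraries, where 10 of 12 were detected (76 molecules, Cd14 the most abundant, Adgre1 and Mrc1 at 0). They summed to 0.0431, 0.0702 and 0.433% in muMt-/- CD8 libraries, where 12 of 12 were detected (546 molecules, Cd14 the most abundant), and to 0.00869, 0.107 and 0.265% with the pellet (12 of 12, 621 molecules, Itgam the most abundant). With this share as a covariate the family and all-gene medians were 0.07 and 0.14 for muMt-/- against WT, with 27 of 49 estimates above 0, 0.12 and 0.03 for the pellet against muMt-/-, and 0.33 and 0.17 for the pellet against WT. Under the same covariate the log2 fold changes in muMt-/- against WT were 0.68 for Eif4h, -1.29 for Eif1ad and 0.34 for Eif3c. Markers of tumour epithelium and stroma summed to 0.0131, 0.0217 and 0.0754% in WT CD8 libraries (8 of 12 detected, 120 molecules), 0.00154, 0.0678 and 0.135% in muMt-/- (7 of 12, 280 molecules) and 0.00435, 0.0227 and 0.0693% with the pellet (9 of 12, 159 molecules), with Col3a1 the most abundant in each. The groups overlapped in these shares, and their part in the result was not tested.

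The pellet comparisons in CD8 cells gave no call either. For GABA-pellet muMt-/- against muMt-/-, 0 of 49 genes passed the edgeR test (0% of all genes) and DESeq2 called 0 at its adjusted p and 1 at its unadjusted p. Before adjustment, at p under 0.05, edgeR had 4 higher and 0 lower, where 2.01% of all genes were higher and 1.7% lower. They were Eif5, Eif3j1, Eif3j2 and Eif6. Of the 49 genes, 31 had an estimate above 0, beside 53.5% of all genes, with a median log2 fold change of 0.13 where all genes had 0.03. The 2 medians were 0.08 and -0.02 with DESeq2 size factors, 0.09 and -0.01 with total molecules, 0.08 and -0.03 with log2 total molecules as a covariate, 0.08 and 0.01 with the Rn45s share, and 0.03 and -0.01 with edgeR's own expression filter (16 above and 12 below 0), and the family median ran from 0.07 to 0.20 with each library left out in turn. Eif5 had 6.86, 11.6 and 17.99 normalized molecules in muMt-/- CD8 cells and 12.6, 18.3 and 25.4 with the pellet, with 3 of 6 pellet libraries above all muMt-/- libraries (0.68, SE 0.26, edgeR adjusted p 0.999). For Eif3j1, the loosely bound eIF3 subunit, the values were 1.67, 3.76 and 4.09 without and 4.68, 5.62 and 9.30 with the pellet. Here the groups did not overlap, all 6 pellet libraries being above all muMt-/- libraries (0.88, SE 0.36, edgeR adjusted p 0.999), from 24 and 53 molecules in all. The near-identical counts of Eif3j2 are no second observation, although both genes are included in the 4 above and in the other gene counts given here. Eif6 had 0, 5.58 and 8.996 without and 4.57, 10.7 and 11.8 with the pellet (0.80, SE 0.36, edgeR adjusted p 0.999), 4 of 6 above.

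For GABA-pellet muMt-/- against WT in CD8 cells, which shares libraries with the other comparisons, 0 of 49 genes passed the edgeR test (0% of all genes). DESeq2 called 0 at its adjusted p and 1 at its unadjusted p. At an unadjusted p under 0.05 edgeR had 3 higher and 0 lower, where 5.99% of all genes were higher and 0.9% lower. The estimates were above 0 for 40 of 49 genes, beside 65.5% of all genes, with a median log2 fold change of 0.31 where all genes had 0.21. With DESeq2 size factors these medians were 0.16 and 0.06 and with total molecules 0.15 and 0.05, each with 28 of 49 estimates above 0. With log2 total molecules as a covariate they were 0.03 and 0.04, again with 28 above 0. With edgeR's own expression filter, which left 14 estimates above and 14 below 0, the family median turned to -0.04 beside 0.01, and without pellet replicate 4 it was 0.10. Eif2s2, the eIF2beta gene, had 8.84, 23.9 and 36.1 normalized molecules in WT CD8 cells, 15.8, 31.3 and 37.1 in muMt-/- and 24.2, 41.5 and 45.8 with the pellet. Of the pellet libraries, 4 of 6 lay above all of WT (0.71, SE 0.26, edgeR adjusted p 0.511). Eif5a had 24.3, 52.9 and 81.1 in WT, 35.9, 55.3 and 64.7 in muMt-/- and 49.7, 66.9 and 102 with the pellet (pellet against WT 0.55, SE 0.23, edgeR adjusted p 0.617, 1 of 6 above). With log2 total molecules as a covariate the log2 fold change of Eif2s2 was 0.04 and the direction for Eif5a turned, to -0.18. Eif4h had 10.2, 16.3 and 21.9 with the pellet, 4 of 6 above all of WT (0.58, SE 0.28, edgeR adjusted p 0.705). The log2 fold changes ran from 0.35 to 0.68 for Eif4h and from 0.36 to 0.71 for Eif5a with each library left out in turn. No gene of the 4 reference lists passed the edgeR test in any of the 3 CD8 comparisons, and few did before adjustment, at p under 0.05: 0 genes of any list for muMt-/- against WT, 1 eIF2alpha kinase or phosphatase gene and 1 cap-binding control gene for the pellet against muMt-/-, and 2 elongation and release factor genes for the pellet against WT. In the same order, 5.37, 2.01 and 5.99% of all genes were higher at that p, and 0.795, 1.7 and 0.9% lower.

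Whether the cell types responded differently was tested directly as the difference between the log2 fold changes in TAMs and in CD8 cells. For muMt-/- against WT, 0 of 49 initiation factor genes passed the edgeR test (0.0118% of all genes, 1 of 8477) and DESeq2 called 0 at its adjusted p. At an unadjusted p under 0.05 edgeR had 3, all below 0, where 148 of all 8477 genes were above and 705 below. DESeq2 had 3 above and 1 below. Eif4h had the largest of the 3 with edgeR, -1.10 (SE 0.33, edgeR adjusted p 0.217), with Eif3h at -0.85 (SE 0.36) and Eif3c at -0.73 (SE 0.31). The median difference was -0.30 for the family and -0.30 for all genes, and with DESeq2 size factors -0.10 and -0.11. For GABA-pellet muMt-/- against muMt-/-, 0 passed (0% of all genes) and DESeq2 called 0 at its adjusted p. At an unadjusted p under 0.05 edgeR had 1 above and 3 below 0, where 219 of all 8477 genes were above and 165 below. DESeq2 had 2. Eif5 was the furthest below 0, at -1.04 (SE 0.31, edgeR adjusted p 0.728), its estimates having opposite signs in TAMs (-0.33) and CD8 cells (0.68). Eif3j1 at -0.92 (SE 0.42) and Eif3j2 also lay below 0, and Eif2b5, the catalytic eIF2B subunit, above it at 1.33.

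The cell types were also compared with each other within each group of mice. Within WT mice 2 of 49 genes were higher in TAMs and 0 lower, where 22.7% of all genes passed (1420 higher and 508 lower). In muMt-/- mice 1 was higher and 5 lower, where 21.4% of all genes passed (1156 higher and 654 lower), and in GABA-pellet muMt-/- mice 1 was higher and 5 lower, where 22% passed (1197 higher and 672 lower). No gene passed in all 3. These splits moved with the scale. With total molecules in place of TMM the initiation factor calls were 0 higher and 4 lower in WT, 0 and 13 in muMt-/- and 1 and 11 in GABA-pellet muMt-/-, and the all-gene calls 968 and 762, 839 and 960, and 1006 and 858. With DESeq2 size factors WT had 0 higher and 1 lower, and so did DESeq2 itself. The median log2 fold change of the family in WT was 0.09 with TMM, -0.10 with DESeq2 size factors and -0.26 with total molecules, beside all-gene medians of 0.36, 0.20 and 0.04. In muMt-/- the all-gene medians were 0.10, 0.13 and -0.13, and in GABA-pellet muMt-/- 0.12, 0.16 and -0.02, beside family medians of -0.28, -0.25 and -0.51, and -0.24, -0.20 and -0.38. Under each of these scales, the family median lay below the all-gene median in the 3 groups.

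The calls in single groups of mice were mostly sensitive to libraries. In WT, Eif4h (log2 fold change 0.71, SE 0.24, edgeR adjusted p 0.0278, 5 of 6 TAM libraries above all CD8 libraries) no longer passed without WT TAM replicate 1, 2, 4 or 5 or WT CD8 replicate 1 or 2 (adjusted p 0.0594 to 0.141). Eif4ebp1 (1.2, SE 0.42, edgeR adjusted p 0.0288, 2 of 6 above) no longer passed without WT TAM replicate 5 or 6 or WT CD8 replicate 1, 2, 3 or 4 (0.0692 to 0.110). The count of 2 was 0 without WT TAM replicate 5 or WT CD8 replicate 1, 1 without WT TAM replicate 1 or 4 or WT CD8 replicate 2, 3 or 4, and 4 without WT CD8 replicate 6. With log2 total molecules as a covariate Eif4h in WT was at 0.04 (adjusted p 0.998) and Eif4ebp1 turned, to -0.47 (0.874), and neither passed with DESeq2 size factors (0.112 and 0.0657), total molecules as the scale (0.343 and 0.137) or edgeR's own expression filter (0.133 and 0.0819). In muMt-/-, Eif1, Eif3f and Eif3h were lower and passed without any of the 12 libraries in turn, while Eif5b (0.72) was lost without TAM replicate 1, 3, 4, 5 or 6 or CD8 replicate 2, 4, 5 or 6 (adjusted p 0.0545 to 0.139), Eif2b5 (-1.37) without CD8 replicate 2 (0.0957) and Eif3g (-1.15) without CD8 replicate 2 or 5 (0.150 and 0.0604). With log2 total molecules as a covariate Eif3f, Eif2b5, Eif3g and Eif5b did not pass in muMt-/- (0.0949, 0.643, 0.112 and 0.176), nor did Eif5b with total molecules as the scale (0.172) or with edgeR's own expression filter (0.0608). In GABA-pellet muMt-/-, Eif4ebp1 (1.31) and Eif1 (-0.50) passed without any of the 12 libraries in turn, Eif3h (-0.65) was lost without TAM replicate 2 or CD8 replicate 3, 4 or 6 (0.0642 to 0.0977), Eif3f (-0.53) without TAM replicate 5 (0.0631), Eif3k (-0.73) without CD8 replicate 4 (0.0773) and Eif4a2 (-0.84) without CD8 replicate 6 (0.0501). With no expression filter Eif1 and Eif3f did not pass (0.115 and 0.127), in a fit to the 12 libraries alone Eif1, Eif3f and Eif3h did not (0.0613, 0.0627 and 0.0559), and with log2 total molecules as a covariate Eif4ebp1, Eif4a2, Eif3k and Eif3f did not (0.761, 0.296, 0.181 and 0.330). The count of 6 there was 4 without CD8 replicate 4 and 9 without TAM replicate 1. Without muMt-/- CD8 replicate 1, the CD8 library with the highest macrophage share, 1 gene was higher and 6 lower in muMt-/-, and without pellet CD8 replicate 1 or 3, 1 was higher and 6 or 4 lower with the pellet. The part of the other macrophage transcripts in CD8 libraries was not tested.

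Taken over the 3 groups of mice, a comparison chosen after the values had been seen, 18 TAM libraries stood against 18 CD8 libraries. Here 3 initiation factor genes were higher in TAMs and 10 lower, where 39.1% of all genes passed (2280 higher and 1038 lower of 8477). The median log2 fold change was -0.11 for the family and 0.19 for all genes, and with total molecules as the scale, which gave 1 gene higher and 18 lower and 1678 and 1598 over all genes, -0.34 and -0.03. DESeq2 called 3 higher and 11 lower, its share over all genes not being given. The genes lower in TAMs were mostly of eIF3, 7 of its 14 genes, namely Eif3b, Eif3d, Eif3f, Eif3g, Eif3h, Eif3k and Eif3m, with Eif1, Eif4a2 and Eif4enif1 beside them. Those higher were Eif4ebp1, Eif1a and Eif4e3. Fold changes rest on TMM and the normalized numbers on DESeq2 size factors over the 36 libraries, so that ratios of the numbers below differ slightly from the fold changes.

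Eif1 had the smallest p of the family. In WT its normalized number was 65.8, 85.0 and 90.8 in TAMs and 107, 121 and 139 in CD8 cells (lowest, median, highest; n = 6 each). In muMt-/- it was 53.2, 69.6 and 84.2 against 96.2, 113 and 124, and with the pellet 71.7, 84.7 and 97.4 against 90.2, 121 and 133. TAM and CD8 libraries did not overlap in WT or in muMt-/-, and overlapped slightly with the pellet, and 15 of 18 TAM libraries lay below all 18 CD8 libraries (log2 fold change -0.53, SE 0.09, edgeR adjusted p 4.22e-06). Eif3f encodes an MPN-domain partner of Eif3h. It had medians of 32.2, 27.7 and 35.5 in the WT, muMt-/- and pellet TAMs and 42.5, 48.0 and 51.9 in the CD8 cells of the same groups. For Eif3f, 8 of 18 TAM libraries lay below all CD8 libraries (-0.52, SE 0.11, edgeR adjusted p 8.55e-05). Eif3h (-0.59, SE 0.14), Eif3m (-0.60, SE 0.16), Eif3g (-0.70, SE 0.20), Eif3k (-0.47, SE 0.14), Eif3d (-0.43, SE 0.16) and Eif3b (-0.37, SE 0.14) had 3, 1, 6, 6, 0 and 7 of 18 TAM libraries below all CD8 libraries. The large core subunit genes Eif3a and Eif3c had log2 fold changes above 0, 0.20 (SE 0.11) and 0.10 (SE 0.12), and did not pass.

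Eif4a2, a second eIF4A helicase gene, had TAM medians of 10.9, 10.3 and 9.82 in the WT, muMt-/- and pellet groups and CD8 medians of 15.6, 14.5 and 16.0. Its log2 fold change was -0.62 (SE 0.16), and 2 of 18 TAM libraries lay below all CD8 libraries. Its paralogue Eif4a1, several times as abundant, had 0.26 (SE 0.11) and did not pass. Eif4ebp1 was high in TAMs, with medians of 13.0, 13.3 and 18.1, and low but scattered in CD8 cells, with medians of 2.74, 7.61 and 5.71. Its CD8 values ran from 0 to 15.2 in WT and from 3.80 to 19.7 in muMt-/-, so that the cell types overlapped and 4 of 18 TAM libraries lay above all CD8 libraries (1.0, SE 0.22, edgeR adjusted p 0.000181). Eif4e3, an atypical cap-binding protein, had TAM medians of 6.75, 5.78 and 5.66 and CD8 medians of 1.26, 1.67 and 3.44, with CD8 libraries at 0 in each group (0.89, SE 0.27). Eif1a, a paralogue of the X-linked eIF1A gene, had TAM medians of 12.1, 13.7 and 13.5 and CD8 medians of 6.80, 8.85 and 9.44 (0.58, SE 0.17), 3 of 18 TAM libraries being above all CD8 libraries. Eif4enif1, whose protein shuttles eIF4E and takes it to P-bodies, had -0.64 (SE 0.25).

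Of these 13 calls, 10 held with each of the 36 libraries left out in turn. Eif3b was lost without muMt-/- TAM replicate 2, WT CD8 replicate 6 or muMt-/- CD8 replicate 3 (adjusted p 0.0595 to 0.0997) and Eif3d without muMt-/- CD8 replicate 5 (0.0673). Eif4enif1 was lost without muMt-/- TAM replicate 2, pellet TAM replicate 5, WT CD8 replicate 4 or 6, muMt-/- CD8 replicate 6 or pellet CD8 replicate 3 or 4 (0.0526 to 0.125). With no expression filter Eif3b, Eif3d and Eif4enif1 did not pass (adjusted p 0.142, 0.137 and 0.129). With total molecules as the scale Eif1a and Eif4e3 did not pass (adjusted p 0.0962 and 0.0515). With log2 total molecules as a covariate, which did not overlap between the cell types, Eif1, Eif3h and no other of the 13 passed, and Eif4ebp1 turned to -0.17.

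**Figure D3:**
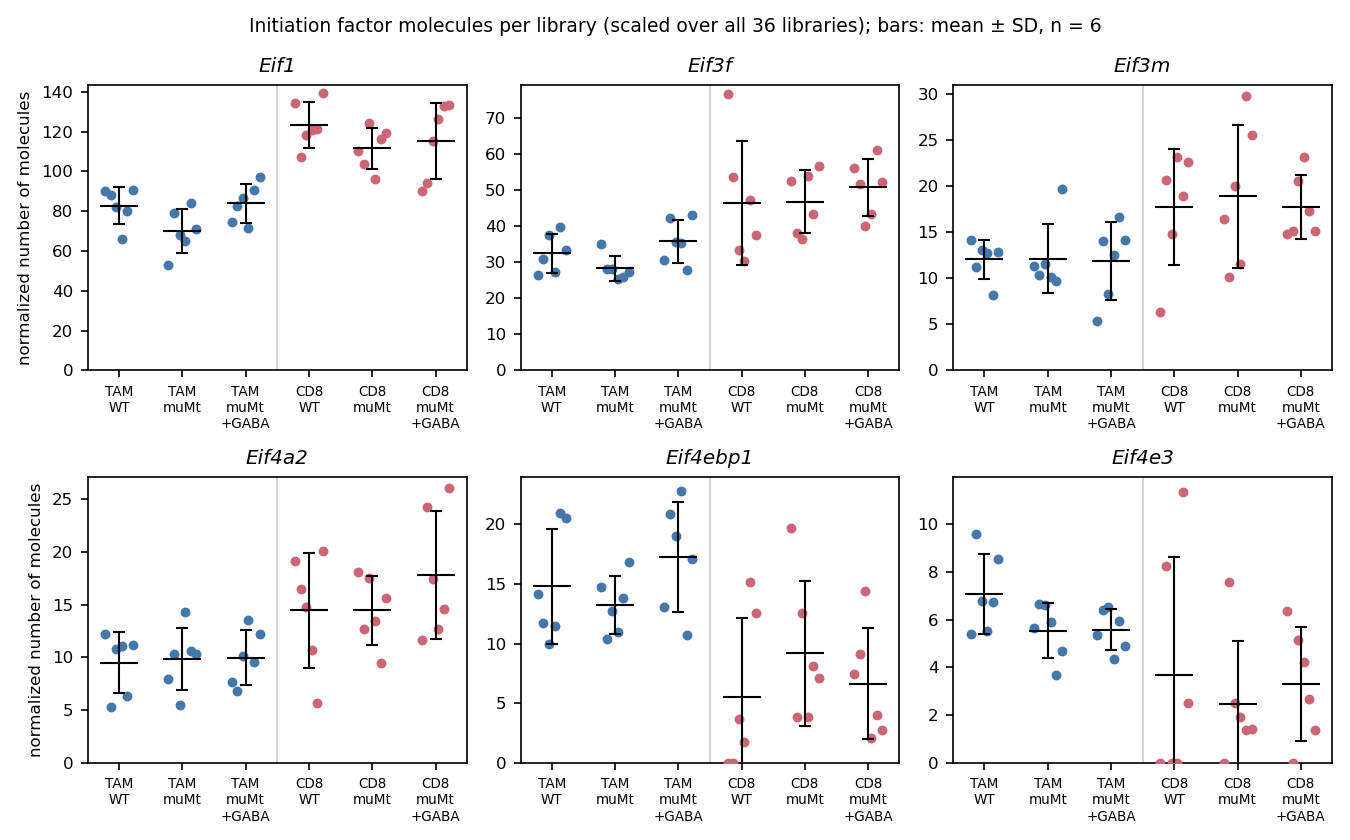
Normalized number of molecules (y axis) of 6 initiation factor genes in each TAM and CD8 library, by group (x axis), scaled over all 36 libraries. Points are libraries and bars give the mean and SD (n = 6); Eif1 lies at 65.8 to 90.8 in WT TAMs and 107 to 139 in WT CD8 cells, while Eif4ebp1 and Eif4e3 lie mostly higher in TAMs.

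**Figure D4:**
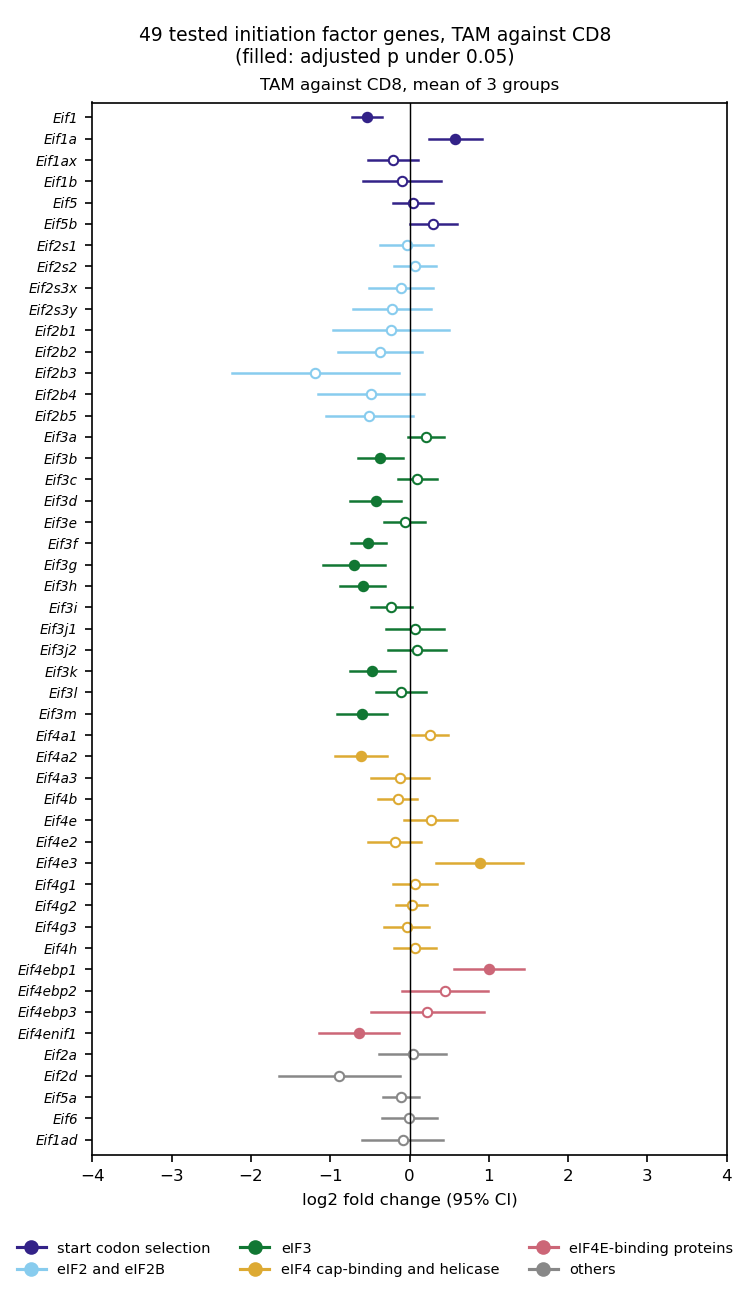
Log2 fold change of TAM against CD8 over the 3 groups, with its 95% confidence interval (x axis), for the 49 tested initiation factor genes (y axis) with TMM scaling. Colours give the role and filled points an edgeR adjusted p under 0.05; 3 filled points lie above 0 and 10 below, 7 of them eIF3 genes, and with total molecules as the scale these counts were 1 and 18.

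The genes that act around initiation were compared between the cell types by the same test over the 3 groups, where 39.1% of all genes passed. Of the 21 list genes past the test, 15 did not pass with log2 total molecules as a covariate, and the 6 that did were Pdcd4, Cyfip1, Pabpc4, Paip2, Eef2 and Eef1g. Of 11 eIF2alpha kinase and phosphatase genes 2 were higher in TAMs and 1 lower. The double-stranded RNA-activated kinase gene Eif2ak2 had 3.61, 6.29 and 9.52 normalized molecules in TAMs and 0, 2.87 and 5.68 in CD8 cells (lowest, median, highest; n = 18 each), with 13 of 18 TAM libraries above all CD8 libraries (log2 fold change 1.38, SE 0.26). The haem-regulated kinase gene Eif2ak1 was the other (0.88, SE 0.28), though not with total molecules as the scale (adjusted p 0.0552), and the phosphatase subunit gene Ppp1cc was lower (-0.58, SE 0.14). Of 13 cap-binding control genes 3 were higher and 2 lower. Pdcd4, whose protein blocks the eIF4A helicase, had 0, 0.847 and 1.79 in TAMs and 2.12, 15.6 and 33.0 in CD8 cells, with no overlap between the cell types (-4.07, SE 0.33). The eIF4E kinase genes parted, Mknk1 being higher in TAMs (1.59, SE 0.31) and Mknk2 lower (-0.54, SE 0.14). Rheb, the GTPase that switches on mTORC1 (0.89, SE 0.17), and the ribosomal S6 kinase gene Rps6ka1 (0.71, SE 0.19) were higher.

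Of 13 poly(A)-binding and other initiation protein genes 2 were higher in TAMs and 5 lower. Cyfip1, an eIF4E-binding partner of FMRP, had 21.0, 29.3 and 48.1 in TAMs and 0, 4.31 and 19.7 in CD8 cells, again with no overlap (2.60, SE 0.21), and the helicase gene Ddx3x was also higher (0.52, SE 0.12), though not with total molecules as the scale (adjusted p 0.0714). Lower were the poly(A)-binding protein gene Pabpc4 (-0.93), its inhibitors Paip2 (-0.78) and Paip2b (-1.26), the reinitiation factor gene Denr (-0.75) and the helicase gene Dhx9 (-0.37), which was lost without WT CD8 replicate 4 or muMt-/- CD8 replicate 5 (adjusted p 0.0732 and 0.0600) and with no expression filter (0.165). Of 14 elongation and release factor genes 0 were higher and 6 lower, and those 6 were all elongation factors or their exchange factor subunits and partners. Eef2, the translocase, had 66.7, 98.1 and 112 in TAMs and 135, 164 and 255 in CD8 cells, and Eef1g 35.4, 53.6 and 66.1 against 77.3, 88.4 and 106, neither with any overlap (-0.79, SE 0.09, and -0.72, SE 0.10). Eef1a1 (-0.58, SE 0.09), Eef1b2 (-0.52, SE 0.11), Eef1d (-0.55, SE 0.14) and Eef1e1 (-1.05, SE 0.25) completed the 6. The list medians were 0.02, 0.00, -0.14 and -0.51, beside 0.19 over all genes.

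What the genes share in their promoters was described from the 250 bases before each start in the RefSeq GRCm38.p6 annotation. Of the 51 genes 39 had at least 1 such window (51 windows, since some genes have several starts). Both strands were searched for CACGTG, the palindromic E-box that MYC and USF proteins recognise, for CCGGAAG with its reverse complement CTTCCGG, a form of the ETS site, and for the TATA box letters TATAAA with TTTATA. The E-box occurred in 9 of the 39 genes (23.1%), where 6.86% of 27025 genes had it, and the ETS form in 12 of 39 (30.8%), where 7.83% of all genes had it. The TATA box occurred in 4 of 39 (10.3%), where 14.3% of all genes had it. A gene counted if any of its windows held the letters. All genes here means every annotated gene with a window, expressed in these cells or not. Shares among expressed genes or genes of like GC content were not computed, so the differences are not read as particular to the family. The genes with CACGTG were Eif1b, Eif3f, Eif3k, Eif4a1, Eif4e, Eif4g1, Eif4h, Eif5a and Eif5a2. Of the 7 genes lower at an unadjusted p under 0.05 in muMt-/- TAMs, 5 had a window and 4 of these held CACGTG, while 5 of the other 34 genes with a window held it. This was noticed after the values had been seen and carries no test. A match of letters is a description and shows no binding.

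Shown here are the 150 bases before the start of 3 genes that lay lower in muMt-/- TAMs read along the strand of the gene, from RefSeq GRCm38.p6, with the motif in capitals. They are Eif3g, which passed the test, at chr9:20898591-20898740 on the minus strand, with CCGGAAG beginning 44 bases before the start, Eif4h at chr5:134639410-134639559 on the minus strand, with CACGTG 96 bases before the start, and Eif4g1 at chr16:20672577-20672726 on the plus strand, with CACGTG 54 bases before the start.
Eif3g: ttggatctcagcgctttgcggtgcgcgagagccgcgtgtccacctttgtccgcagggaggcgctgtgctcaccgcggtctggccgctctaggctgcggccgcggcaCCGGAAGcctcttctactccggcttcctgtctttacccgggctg
Eif4g1: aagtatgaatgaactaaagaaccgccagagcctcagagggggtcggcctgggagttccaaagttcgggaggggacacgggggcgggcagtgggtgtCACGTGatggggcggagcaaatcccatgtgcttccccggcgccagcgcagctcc
Eif4h: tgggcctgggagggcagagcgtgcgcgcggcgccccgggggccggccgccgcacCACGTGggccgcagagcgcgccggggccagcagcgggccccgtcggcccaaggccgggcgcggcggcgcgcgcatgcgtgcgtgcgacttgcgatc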

How the data were processed

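The deposited table holds integer counts of molecules per gene and library, which the authors made by aligning reads to mm10 with STAR and counting molecular barcodes. For each cell type, genes with a mean DESeq2-normalized number above 1 over its 18 libraries were fitted with edgeR 4.0.16 in R 4.3.3 (TMM scaling, quasi-likelihood F-test, 1 coefficient per group), with Benjamini-Hochberg adjustment over all genes tested. TAM against CD8 was fitted over the 36 libraries. DESeq2 1.42.0 was the second tool, and the shares of all genes called are those of the edgeR fits. Named genes were those past the adjusted test, the 3 with the smallest p in each comparison within a cell type, those called for TAM against CD8 in all 3 groups of mice (none were), and Eif4e, Eif4ebp1, Eif2s1, Eif5a, Eif2s3x and Eif2s3y. Genes named beyond this rule were chosen after their values were seen. The initiation factor genes and the lists were chosen with earlier results of these data known. Alternatives were other scalings, other filters, covariates, a replicate block, DESeq2, and each library left out in turn. Levels per length use the longest protein-coding transcript of GENCODE M21. Promoter sequences are from RefSeq GRCm38.p6.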

Additional observations from a re-analysis of the deposited data

Results flagged for a closer look

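In 31 initiation factor genes, and in the family's share of molecules and the depth, 198 sets of 6 libraries were examined for a library far from the other 5, and 17 such values were found. Chance puts about 1 in 20 groups there. All values are normalized numbers of molecules unless another measure is named, with the range of the other 5 libraries beside each.

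In TAMs, GABA-pellet muMt-/- replicate 1 was high in Eif5 at 57.1 (others 30.2 to 39.7), in Eif2s1 at 50.4 (others 19.2 to 26.7) and in Eif3j1 at 19.9 (others 9.37 to 13.3). This library also stood apart over all genes, by a chi-square that measures how far a pair of libraries differs beyond sampling. Per degree of freedom it was 2.96 to 7.01 against the rest of its group, whose own pairs had 1.30 to 2.85. Rn45s took 19.9% of its molecules (others 6.96 to 13.0%). Replicate 3 of that group was low in Eif2s3x at 6.1 (others 13.0 to 16.5). In muMt-/- TAMs, replicate 1 was high in Eif3f at 58.4 (others 41.8 to 47.3) and replicate 6 high in Eif3m at 32.6 (others 16.4 to 19.4). WT TAM replicate 2 was low in Eif3g at 6.46 (others 16.7 to 19.6).

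In CD8 cells, muMt-/- replicate 6 was low in Eif2s2 at 15.8 (others 29.2 to 37.1), in Eif3j1 at 1.67 (others 3.36 to 4.09) and in Eif3j2 at 1.67 (others 3.27 to 4.05), the last a near copy of the counts of Eif3j1. Replicate 2 of that group was high in Eif4e3 at 4.46 (others 0 to 1.52). WT replicate 2 was low in Eif2s1 at 2.4 (others 9.15 to 12.8) and high in Eif3c at 26.4 (others 9.01 to 14.9). WT replicate 1 was low in Eif4h at 3.67 (others 11.3 to 15.5), and WT replicate 5 high in Eif6 at 10.3 (others 4.42 to 6.01). With the pellet, replicate 1 was high in Eif2s1 at 17.2 (others 5.47 to 7.32) and replicate 3 high in Eif3j1 at 9.3 (others 4.68 to 6.20). Eif2s1 was thus high in pellet replicate 1 of both cell types. The chi-square per degree of freedom of this CD8 library against its group was 3.01 to 6.16, where the other pairs had 1.46 to 3.68. No gene moved in opposite directions in every library of the cell types.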

How the results depend on the processing

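Of 2215 values of named genes under alternatives, 2087 kept their direction and their side of the threshold, 123 no longer passed, 1 newly passed and 4 turned. The 4 were, with the Malat1 and Neat1 share as a covariate, Eif3h in TAMs, muMt-/- against WT, at 0.086, and with log2 total molecules as a covariate Eif5a in CD8 cells, pellet against WT, at -0.18, Eif4ebp1 in TAMs against CD8 cells in WT at -0.47 and over the 3 groups at -0.17. The cause was not tested. Among the 2215 values, a gene that had not passed counted as kept while it still did not pass, and genes of the reference lists were included. In TAMs, muMt-/- against WT, Eif6 no longer passed in 5 and Eif3g in 7 of 12 fits with a library left out.

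The numbers of initiation factor genes called were, at an unadjusted p under 0.05 by edgeR, 7, 8 and 1 in the TAM comparisons (muMt-/- against WT, pellet against muMt-/-, pellet against WT), 1, 4 and 3 in the same CD8 comparisons, 8, 13 and 12 for TAM against CD8 in WT, muMt-/- and pellet mice, and 3 and 4 for the differences between cell types in the muMt-/- and pellet effects. By edgeR at that p, 2052 of all 8477 genes were higher and 711 lower for TAM against CD8 in WT. The same numbers were 1677 and 1006 in muMt-/- and 1716 and 1005 in pellet mice. At an unadjusted p under 0.05 by DESeq2 the numbers of initiation factor genes were 7 and 6 in the first 2 TAM comparisons, 1 and 1 in the last 2 CD8 comparisons, 6, 12 and 10 for TAM against CD8, and 4 and 2 for the differences. By the adjusted p of DESeq2 they were 1 for the pellet against muMt-/- in TAMs and 1 for TAM against CD8 in WT. In TAMs, muMt-/- against WT, the count was 0 with each of the covariates total molecules, Malat1 and Neat1 share, and Rn45s share, the last chosen after seeing the data. For TAM against CD8 in WT it was 1 with DESeq2 size factors, 4 with total molecules, 6 with edgeR's own expression filter and 0 with total molecules as a covariate. In muMt-/- it was 13 with total molecules, 11 with that filter and 3 with the covariate, and in pellet mice 12, 10 and 3, and 3 in a fit to the 12 libraries alone. Over the 3 groups it was 3 with the covariate. Over all genes, DESeq2 size factors gave 1176 higher and 632 lower for TAM against CD8 in WT. Total molecules gave 968 and 762 in WT, 839 and 960 in muMt-/-, and 1006 and 858 in pellet mice. All-gene calls under the other settings of this paragraph are not given, so those counts are not read as a result about the family. The cause of these moves was not tested, except that depth does not overlap between the cell types.

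With each library left out in turn, the counts ran from 0 to 2 for muMt-/- against WT in TAMs and from 0 to 4 for TAM against CD8 in WT. They ran from 5 to 7 in muMt-/-, from 4 to 9 in pellet mice and from 12 to 16 over the 3 groups. Correlations between libraries with the same replicate number ran from -0.18 to 0.28. Between TAM and CD8 libraries of a group they averaged 0.011 in WT, 0.022 in muMt-/- and 0.057 with the pellet. Unlike numbers averaged -0.002, -0.004 and -0.011. Pellet replicate 1 had 0.211. Whether same-numbered TAM and CD8 libraries share a mouse was not tested. A replicate block gave counts of 2 in TAMs, muMt-/- against WT, and of 12 over the 3 groups. For TAM against CD8 in WT, muMt-/- and pellet mice it gave 3, 6 and 7, and elsewhere 0. With the block Eif4enif1 did not pass over the 3 groups (adjusted p 0.0564). Of the 51 genes, 30 had a molecule in all 18 of the shallower CD8 libraries and 43 in all 18 TAM libraries, and the biological coefficient of variation was 0.294 in CD8 cells and 0.195 in TAMs. The part of depth in these values was not tested.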
